A study of Mus musculus with 6 samples.

Results

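The disease-associated microglia genes followed here were 10 genes listed by name: Apoe, Lpl, Trem2, Tyrobp, Axl, Itgax, Clec7a, Cst7, Spp1 and Cd9. Of these, 9 were found by symbol among the 19848 genes of the deposited RNA table, and Clec7a was not analysed here. The table covered 13052 immune-enriched cells from mouse brain, and the 9 genes were read in every annotated cell type, with 9403 of the cells annotated as microglia. The cells came from 24 naive female C57BL/6 mice. Young mice were 12 weeks old and aged mice 72 weeks old. At each age 6 mice were given vehicle and kept an intact gut flora (control), and 6 were given antibiotics that depleted it. Brains were dissociated one by one, enriched for immune cells on Percoll, stained with barcoded antibodies and merged into 12 hashtagged pools, 3 in each of the 4 groups. All young pools were loaded in one 10x well and all aged pools in another, so age and well cannot be told apart. Hashtags also differed between control and antibiotic pools.

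Disease-associated microglia are a state that parenchymal microglia enter around amyloid, dying neurons, damaged myelin and in old brain. Entry is classically described through the surface receptor TREM2, which binds lipids and lipoproteins and signals through the adaptor TYROBP (DAP12). Lipid-handling genes such as Apoe and Lpl, lysosomal genes and surface markers such as Itgax, Axl and Cd9 rise in that state, while homeostatic genes such as P2ry12 and Tmem119 fall.

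The members lie at separate places in the mouse genome, with 4 of them on chromosome 7. In build GRCm38.p6, RefSeq places Apoe at chr7:19696244-19701310, Axl at chr7:25756500-25788924, Tyrobp at chr7:30413782-30417582 and Itgax at chr7:128129526-128150657. Trem2 lies at chr17:48346401-48352276, Lpl at chr8:68880555-68906932, Cst7 at chr2:150570415-150578944, Spp1 at chr5:104435111-104441053 and Cd9 at chr6:125460266-125494760. All 9 are protein coding. The proximal promoters of Apoe, Axl, Cst7 and Cd9 are printed because these 4 genes were called higher in aged than in young microglia in both treatment arms, by the test described with those results. Each is the stretch of 250 bases before a RefSeq transcript start, read 5′ to 3′ on the gene's own strand. For Apoe the most upstream of the 3 starts in the promoter set was taken, which lies inside the span given for the gene. Capitals mark GAGGAA or its complement TTCCTC, the ETS core as PU.1 binds it, and would also mark TGANTCA (AP-1) or CACGTG (a palindromic E-box).
Apoe, chr7:19699189-19699438, minus strand: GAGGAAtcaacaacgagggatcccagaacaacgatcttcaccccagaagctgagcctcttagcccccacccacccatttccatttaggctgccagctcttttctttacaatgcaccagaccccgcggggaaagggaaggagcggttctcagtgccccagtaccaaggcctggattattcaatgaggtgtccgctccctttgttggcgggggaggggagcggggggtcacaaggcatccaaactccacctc
Axl, chr7:25788734-25788983, minus strand: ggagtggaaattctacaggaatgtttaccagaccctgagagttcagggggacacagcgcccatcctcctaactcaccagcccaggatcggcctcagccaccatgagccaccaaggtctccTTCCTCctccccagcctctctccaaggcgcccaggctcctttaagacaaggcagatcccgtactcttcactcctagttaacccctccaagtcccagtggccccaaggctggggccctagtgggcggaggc
Cst7, chr2:150570165-150570414, plus strand: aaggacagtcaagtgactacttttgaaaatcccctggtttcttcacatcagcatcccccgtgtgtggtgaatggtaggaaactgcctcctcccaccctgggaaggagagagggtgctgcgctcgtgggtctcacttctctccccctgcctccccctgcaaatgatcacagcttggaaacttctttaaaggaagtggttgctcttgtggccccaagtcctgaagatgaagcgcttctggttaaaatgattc
Cd9, chr6:125494761-125495010, minus strand: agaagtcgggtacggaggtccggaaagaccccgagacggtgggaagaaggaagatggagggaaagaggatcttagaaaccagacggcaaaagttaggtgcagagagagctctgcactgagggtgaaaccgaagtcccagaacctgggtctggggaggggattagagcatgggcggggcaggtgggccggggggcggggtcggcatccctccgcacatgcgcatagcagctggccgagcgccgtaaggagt
The windows of Apoe and Axl each held 1 GAGGAA match, and those of Cst7 and Cd9 held none. None of the 4 held TGANTCA or CACGTG. Over the 32851 windows of the same length in the RefSeq set, GAGGAA occurred in 23.3%, TGANTCA in 6.75% and CACGTG in 6.02%. A match to GAGGAA is thus common, and matches to TGANTCA or CACGTG are less so. The Cd9 window also held 2 matches to the GC box GGGCGG and the Axl window 1, a motif found in 32.7% of all windows.

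In microglia, depth was even across pools for RNA and uneven for antibody tags. Pools held 760 to 1590 cells and 475 to 1186 microglia, with a median of 6411 to 7304 raw UMIs per microglia. The median number of antibody tags per microglia was 1130 to 1303 in young pools and 153 to 178 in aged pools. In cells labelled microglia, P2ry12, Tmem119, Sall1 and Siglech were each above 0 in most cells. Their summed value was 26.6 to 28.6 in young and 23.9 to 27.2 in aged pools. Tmem119 was above 0 in 100% of microglia. How the label was set is not given here, so its markers describe it and cannot test it. Summed border-associated macrophage markers stayed at 0.0462 to 0.105 in every pool of microglia. Summed dissociation stress genes were 174 to 202 in young and 162 to 173 in aged pools. Summed B cell markers were 1.73 to 2.07 in young and 2.58 to 3.94 in aged pools, and T cell markers 0.0194 to 0.0276 and 0.0532 to 0.176. Summed neutrophil markers were 2.23 to 20.2 in young pools, 0.625 to 0.706 in aged control pools and 1.05 to 3.01 in aged antibiotic pools. These differences run with age, and for neutrophil markers also with antibiotics in aged pools. Summed ependyma and choroid markers were 2.43 to 3.56 in young control and 4.42 to 9.20 in young antibiotic pools. NK and ILC markers were 0.239 to 0.302 and 0.322 to 0.396 there, and dendritic cell markers 0.00984 to 0.0152 and 0.0160 to 0.0250. For each of these lists the aged arms overlapped. The part of any of these marker differences in the results was not tested. In all, 59 cell barcodes occurred in both wells.

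Each gene had its own order of cell types. Values are SCTransform-corrected counts, which keep the form of a count after sequencing depth has been regressed out, averaged over the cells of a pool. They were compared between types and pools within a gene and not between genes. Only Trem2 and Cd9 had their highest mean in microglia. Trem2 averaged 14.8 in microglia (14.1 to 15.6 over 12 pools), 6.98 in BAM (border-associated macrophages) and 2.13 in cells annotated Ly6CLow, and the pool ranges of microglia, BAM and Ly6CLow cells did not overlap. Cd9, a tetraspanin of the cell surface, averaged 7.14 in microglia (5.85 to 8.32) and 4.80 in Ly6C+Ly6G+ cells (4.10 to 5.87), ranges that met at their edge, with microglia higher in 9 of 9 pools compared.

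Apoe, Axl and Itgax had their highest means in other myeloid types. Apoe, the main lipid carrier of the brain, averaged 273 in BAM (239 to 327), with every pool above the highest pool of the next type, Ly6CLow cells (37.6, range 15.4 to 71.8). Microglia ranked 6 of 9 types at 10.7 (6.25 to 20.8), and their range overlapped those of the types on either side, Ly6C+Ly6G+ and CD4+ cells. Axl, a TAM receptor for phosphatidylserine bridged by Gas6, averaged 1.44 in BAM (1.00 to 2.15), 0.951 in Ly6CLow cells and 0.112 in microglia (0.0447 to 0.211). Itgax, which encodes the integrin CD11c, averaged 0.678 in Ly6CLow cells (0.377 to 1.05) and was lowest of all types in microglia, at 0.0456 (0.0163 to 0.0895), where it overlapped CD8+ cells.

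Tyrobp, Cst7, Lpl and Spp1 had their highest means in immune cells other than microglia and BAM. Tyrobp, the shared signalling adaptor of many myeloid and NK receptors, averaged 25.8 in Ly6C+Ly6G+ cells, 21.3 in Ly6CHigh cells, 15.2 in Ly6CLow cells, 15.1 in microglia and 14.6 in BAM, and each neighbour in that order overlapped the next. Cst7 encodes cystatin F, an inhibitor of lysosomal cysteine proteases. It averaged 0.919 in CD8+ cells, 0.737 in ILCs, 0.387 in CD4+ cells and 0.113 in microglia, and was lowest in BAM at 0.0209. Lpl, lipoprotein lipase, averaged 0.674 in Ly6CLow cells with pools from 0 to 2.86, 0.311 in Ly6CHigh cells, 0.185 in BAM and 0.145 in microglia, all overlapping. Spp1, the secreted phosphoprotein osteopontin, averaged 1.77 in Ly6CLow cells, but single pools ran from 0.0571 to 11.4 there and from 0 to 15.5 in Ly6CHigh cells (mean 1.51), against 0.463 in BAM and 0.174 in microglia. Depth was not even in all types: median raw UMIs were 13258 in young and 951 in aged Ly6CHigh cells. They were 11368 in young and 7274 in aged Ly6CLow cells. The part of depth in the order of types was not tested. The type NKCells, with 9 cells in all, was not averaged.

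**Figure D1:**
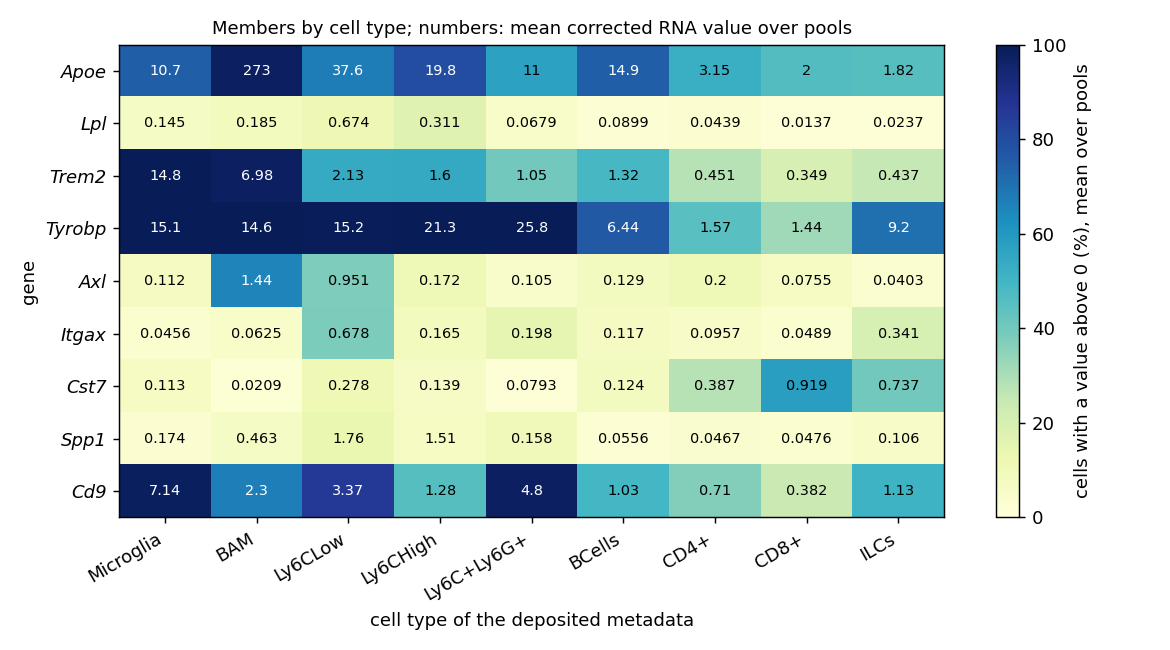
Mean corrected RNA value (numbers) of each gene (rows) in each annotated cell type (columns), averaged over pools with at least 10 cells of that type. Shading gives the percent of cells with a value above 0, averaged over the same pools, on a scale shared by all rows. The numbers are not comparable between rows. Trem2 and Cd9 are highest in microglia (14.8 and 7.14), Apoe and Axl in BAM (273 and 1.44), and Itgax is lowest in microglia (0.0456).

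In microglia, 4 of the 8 members that passed the filter on low values had a higher mean in aged than in young control pools, and 5 of 8 did so in antibiotic pools. Apoe, Axl, Cst7 and Cd9 rose in both arms and Spp1 in the antibiotic arm, while Trem2 and Tyrobp were nearly flat. No member fell. A member is said to rise or fall where limma, fitted on log2(mean + 0.05) over all genes with a mean of at least 0.05, gave a Benjamini-Hochberg adjusted p under 0.05. Of the 8759 genes tested, 2.66% were called in either direction between aged and young control pools and 6.15% between aged and young antibiotic pools. The median log2 difference of the 8 members was 0.53 in control and 0.85 in antibiotic pools, against 0.02 and 0.03 over all genes. Itgax fell under the filter and was tested only with no filter. The 2 age contrasts use different pools, but each shares pools with the antibiotic contrasts given further on. With 3 pools of mice on each side, these p-values measure the spread between pools, and the log2 scale with its added 0.05 understates changes of low genes.

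Among the lipid genes, Apoe averaged 8.38, 6.79 and 6.25 in the 3 young control pools and 7.26, 6.79 and 7.65 in the young antibiotic pools. In aged control pools it stood at 13.7, 11.5 and 10.9, and in aged antibiotic pools at 12.7, 20.8 and 15.9. Every aged pool lay above every young pool. The log2 difference between aged and young was 0.75 (SE 0.136, limma adjusted p = 0.00374) in control and 1.16 (limma adjusted p = 2.48e-05) in antibiotic pools. Apoe was also higher in aged than in young cells of types outside the myeloid lineage, at 3.08 against 0.925 in CD8+ cells and 21.0 against 10.3 in B cells, and its part in the microglial difference was not tested. In BAM, where Apoe was by far the highest, the means over cells were 275 in aged and 268 in young.

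Lpl, which hydrolyses lipoprotein triglyceride, had means of 0.113, 0.170 and 0.0694 in young control and 0.0856, 0.106 and 0.0868 in young antibiotic pools. The aged values were 0.215, 0.239 and 0.157 with vehicle and 0.117, 0.128 and 0.248 with antibiotics. One young control pool lay above the lowest aged control pool, while the antibiotic groups did not overlap. The log2 differences of 0.63 (SE 0.201) in control and 0.54 (SE 0.201) in antibiotic pools did not pass (limma adjusted p = 0.131 and 0.129). A few cells weighed heavily: the 1% highest microglia of a pool carried 30.0% to 71.2% of its summed Lpl.

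Of the receptor pair, Trem2 averaged 14.5 ± 0.534 (SD, n = 3) in control and 14.6 ± 0.537 in antibiotic pools of young mice. In aged mice it averaged 15.3 ± 0.398 with vehicle and 14.7 ± 0.688 with antibiotics. The age difference was 0.08 (SE 0.0655) in control and 0.01 (SE 0.0655) in antibiotic pools on the log2 scale (limma adjusted p = 0.709 and 0.976). Tyrobp averaged 15.1 ± 0.424, 14.4 ± 0.924, 15.8 ± 0.198 and 15.2 ± 0.625 in the same order, with age differences of 0.06 and 0.08 (SE 0.0672 each, limma adjusted p = 0.798 and 0.59). Both transcripts were above 0 in at least 99.6% of the microglia of every pool, and their groups overlapped.

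In young mice Axl averaged 0.0574, 0.0607 and 0.0602 in control and 0.0479, 0.0499 and 0.0447 in antibiotic pools. Aged control pools stood at 0.146, 0.171 and 0.124 and aged antibiotic pools at 0.176, 0.211 and 0.198. All 6 aged pools lay above all 6 young pools. The log2 differences were 0.84 (SE 0.0979, limma adjusted p = 4.23e-05) in control and 1.33 (limma adjusted p = 9.15e-08) in antibiotic pools. Itgax followed the same order at lower values: 0.0163, 0.0246 and 0.0286 in the control and 0.0360, 0.0237 and 0.0261 in the antibiotic pools of young mice. The aged pools had 0.0895, 0.0536 and 0.0498 with vehicle and 0.0508, 0.0769 and 0.0716 with antibiotics. Its aged and young pools did not overlap, but with no filter on low values the differences of 0.63 and 0.56 did not pass (limma adjusted p = 0.0725 and 0.0684).

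Cst7 averaged 0.0412, 0.0492 and 0.0541 in young control and 0.0497, 0.0355 and 0.0270 in young antibiotic pools. It reached 0.172, 0.145 and 0.130 in aged control and 0.260, 0.228 and 0.164 in aged antibiotic pools. Again no young pool reached an aged pool. The log2 differences were 1.02 (SE 0.130, limma adjusted p = 1.33e-04) and 1.6 (limma adjusted p = 3.16e-07). Cd9, present in nearly every microglia, moved less, from 6.48, 6.31 and 6.82 to 8.32, 8.29 and 8.01 in control and from 5.85, 6.46 and 6.41 to 6.95, 7.84 and 8.0 in antibiotic pools. The 2 ages did not overlap for Cd9 either, with log2 differences of 0.33 (SE 0.0662, limma adjusted p = 0.00907) and 0.28 (limma adjusted p = 0.0154). The control call was lost without aged control pool 2 (limma adjusted p = 0.053), and the antibiotic call without young antibiotic pool 1, aged antibiotic pool 2 or aged antibiotic pool 3 (limma adjusted p = 0.0789, 0.0703 and 0.0616).

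Spp1 behaved differently from the rest. Its young control pools were scattered (0.0607, 0.185 and 0.00816) and its young antibiotic pools low (0.00856, 0.0144 and 0.0177). Aged control pools averaged 0.128, 0.129 and 0.0642 and aged antibiotic pools 0.586, 0.245 and 0.638. The control arms overlapped, with a log2 age difference of 0.42 (limma adjusted p = 0.697), and the antibiotic arms did not, with one of 2.99 (SE 0.352, limma adjusted p = 2.49e-05).

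**Figure D2:**
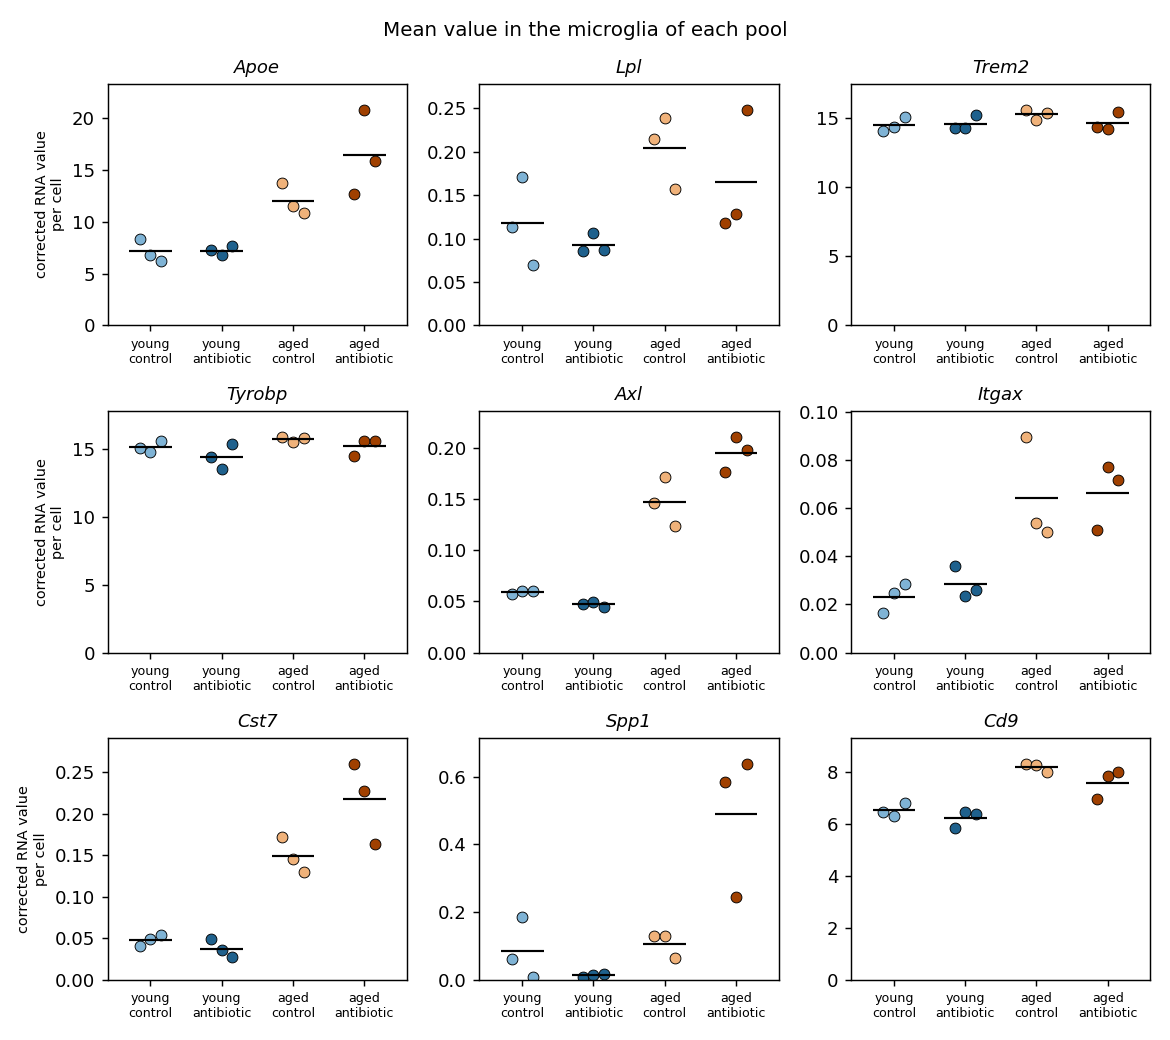
Mean corrected RNA value per cell in the microglia of each pool (points) and the mean of 3 pools (bars), by group, for the 9 genes, each panel with its own linear axis from 0. Aged pools lie above all young pools for Apoe, Axl, Itgax, Cst7 and Cd9, Trem2 and Tyrobp stay near 15, and Spp1 is highest in the aged antibiotic pools (0.245 to 0.638).

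The share of microglia with a value above 0 shows how many cells carried each difference in the mean. Cst7, Axl and Spp1 were seen in a larger share of aged than of young microglia in control pools, and Apoe joined them in antibiotic pools. That is 3 and 4 of 8 members by limma on the log2 odds, where 2.56% and 5.64% of all 8759 genes were called. The median log2 odds difference was 0.36 and 0.34 for the members and -0.01 and 0.02 for all genes. Cst7 was above 0 in 2.71%, 3.44% and 3.47% of young control microglia and in 10.4%, 10.1% and 8.20% of aged control microglia. The antibiotic pools held 4.11%, 2.37% and 2.19% when young and 11.3%, 13.4% and 9.89% when aged, with log2 odds differences of 1.66 and 2.16 (limma adjusted p = 5.11e-08 and 9.78e-12). Mean Cst7 over the cells above 0 ranged only from 1.21 to 1.56 in young and from 1.44 to 2.31 in aged pools, which overlapped.

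Axl was above 0 in 4.33%, 4.26% and 4.69% of young control and 8.66%, 10.9% and 8.42% of aged control microglia. In antibiotic pools it was above 0 in 3.6%, 3.94% and 3.54% of young and 10.9%, 12.5% and 13.5% of aged microglia. The log2 odds differed by 1.13 and 1.85 (limma adjusted p = 1.32e-05 and 8.02e-12), with no overlap of ages. Apoe was above 0 in 68.4% to 74.8% of young and 75.2% to 81.4% of aged microglia, with differences of 0.47 in control (limma adjusted p = 0.0538) and 0.49 in antibiotic pools (limma adjusted p = 0.0213). The latter call was lost without young antibiotic pool 1, young antibiotic pool 2 or aged antibiotic pool 2 (limma adjusted p = 0.118, 0.0978 and 0.247), and was kept in 14 of 21 alternatives in all. Apoe also differed in how much each positive cell held, at 9.14 to 11.3 in young and 13.9 to 25.6 in aged pools. For Itgax, with no filter on low values, the share went from 1.52% to 2.40% over young pools to 3.43% to 5.89% over aged pools, with log2 odds differences of 1.2 and 1.15 (limma adjusted p = 0.0135 and 0.0125). Lpl was above 0 in 4.99% to 7.87% of young and 6.20% to 8.96% of aged microglia, which overlapped.

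A low share of cells above 0 can come from free RNA, so each was set beside the share in other cell types. Lpl was above 0 in 6.07% of young and 6.97% of aged microglia against 0.943% and 1.29% of CD8+ cells. It was above that type at both ages, and below BAM (8.75% and 9.77%) at both ages. Ly6CLow cells had 17.9% and 6.11%. Cst7 was above 0 in 2.93% and 10.7% of microglia against 1.67% and 1.88% of BAM and 6.56% and 9.05% of B cells. The young Cst7 share lay above BAM and below B cells, and the aged share lay above both types, though little above B cells. Axl was above 0 in 4.06% of young and 10.7% of aged microglia, against 6.60% and 6.91% of CD8+ cells and 6.56% and 9.47% of B cells. The young Axl share lay below both types, and the aged share above both, though little above B cells. Spp1 was above 0 in 1.25% and 4.34% of microglia against 2.83% and 3.70% of CD8+ cells, 1.23% and 3.29% of B cells and 5.81% and 6.29% of ILCs. The young Spp1 share was close to that of B cells and below CD8+ cells and ILCs. The aged share lay above CD8+ and B cells but below ILCs. Itgax, in 2.10% and 4.73% of microglia, did not exceed BAM (4.17% and 4.89%) at either age. Against CD8+ cells (4.72% and 3.38%) it was lower in young and higher in aged microglia. Whether free RNA gave any of these shares was not tested. Median raw UMIs in young and aged cells were 6809 and 7118 in microglia, 8287 and 6928 in CD8+ cells, 7769 and 7412 in BAM, 4701 and 6165 in B cells and 5911 and 6776 in ILCs.

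**Figure D3:**
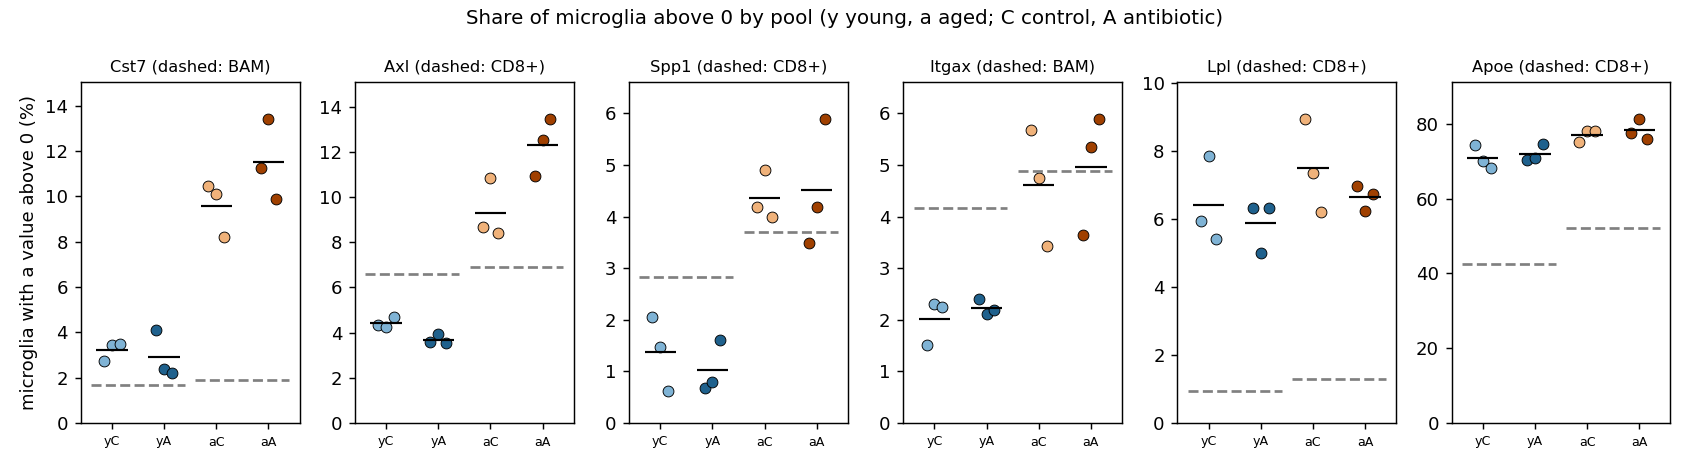
Percent of the microglia of each pool with a value above 0 (points) and the mean of 3 pools (bars), by group. Dashed lines give the share at the same age in another cell type, as named in each panel title. Cst7 and Axl are higher in every aged pool than in every young pool. The Spp1 shares lie below the CD8+ level in young pools (0.612% to 2.06%, against 2.83%). They lie around it in aged pools (3.49% to 5.89%, against 3.70%).

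Antibiotics moved 1 member in aged microglia and none in young microglia. Spp1 had a higher mean in aged antibiotic than in aged control pools, by 1.72 on the log2 scale (SE 0.352, limma adjusted p = 0.0109), where 3.23% of all genes were called. The groups did not overlap. In the same contrast Apoe differed by 0.43, Axl by 0.32 and Cst7 by 0.42, none of which passed (limma adjusted p = 0.0842, 0.079 and 0.0832). The 3 aged antibiotic pools lay above the 3 aged control pools for Axl, while for Apoe and Cst7 the 2 groups overlapped. Lpl (-0.28), Cd9 (-0.11), Trem2 (-0.06) and Tyrobp (-0.05) did not pass either. The median of the 8 members was 0.13, against -0.01 over all genes.

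In young microglia limma called 0 of 8 members between antibiotic and control pools, where 0.137% of all genes were called. At an unadjusted p under 0.05 the count was 1, Spp1, at -0.86 (limma adjusted p = 0.385). Axl was lower in each of the 3 young antibiotic pools (at most 0.0499) than in the young control pools (at least 0.0574), and higher in each of the 3 aged antibiotic pools than in the aged control pools. The test of that change in the antibiotic effect with age gave 0.48 for Axl, 0.59 for Cst7 and 2.57 for Spp1 on the log2 scale and did not pass (limma adjusted p = 0.503, 0.584 and 0.18). In this test 0 of 8 members and 0% of genes were called, and 4 members had an unadjusted p under 0.05. Averaged over both ages, antibiotics again gave 0 of 8 calls, against 5.4% of all genes, with only Apoe under an unadjusted 0.05 (0.23, limma adjusted p = 0.173).

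The shares of cells above 0 gave no call for any member in the antibiotic contrasts. Among all genes the called share was 0.731% for young pools, 3.38% for aged pools, 6.18% for the mean of the ages and 0.0457% for their difference. The members with an unadjusted p under 0.05 numbered 0, 2, 1 and 1 in that order. For Spp1 in aged microglia the log2 odds differed by 0.03 (limma adjusted p = 0.98): 4.18%, 4.90% and 3.99% of control and 3.49%, 4.18% and 5.89% of antibiotic microglia were above 0. The higher Spp1 mean therefore came without a larger share of cells.

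A few cells carried the Spp1 means. The highest single microglia had a value of 319, 140 and 265 in the 3 aged antibiotic pools and carried 86.5%, 55.6% and 87.5% of the summed Spp1 of all microglia in its pool. In aged control pools the highest cells had 45, 31 and 7, in young control pools 32, 101 and 3, and in young antibiotic pools 2, 4 and 3. Cells with a value of at least 5 numbered 13 of 2133 in aged antibiotic, 6 of 2226 in aged control, 4 of 2513 in young control and 0 of 2531 in young antibiotic pools. Without the 1% highest cells of each pool the aged means were 0.0353 ± 0.00563 (SD, n = 3) in control and 0.0357 ± 0.0120 in antibiotic pools, and the difference was gone (log2 difference -0.000772, limma adjusted p = 0.998). The age difference in antibiotic pools kept its call there at a smaller size (0.71, limma adjusted p = 1.11e-04), and was lost among cells of 5000 to 10000 raw UMIs (1.17, limma adjusted p = 0.0568). The call for antibiotics in aged pools was also lost without aged control pool 3 or aged antibiotic pool 3 (log2 differences 1.5 and 1.49, limma adjusted p = 0.0508 and 0.0507).

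The highest Spp1 cells were not of one kind. That of aged antibiotic pool 1 had the fullest set of members, with Apoe at 281, Trem2 at 44, Cst7 at 10, Itgax and Axl at 5 each and Lpl at 4. That of pool 3 had Lpl at 36, Apoe at 85 and Trem2 at 10. That of pool 2 went against its label, with Trem2 at 0 and the non-microglial genes Apod at 119 and Ptn at 37. P2ry12 (1, 0 and 0) and Tmem119 (2, 1 and 3) were low in all 3 cells. The highest cells of young control pools 1 and 2 also held Apod, at 136 and 148. Of the 23 microglia with Spp1 of at least 5, 4 had Apod of at least 5, against 8 of the 9380 others. Without all cells of Apod at least 5, Spp1 still differed between aged antibiotic and control pools by 1.37 (limma adjusted p = 0.0488).

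**Figure D4:**
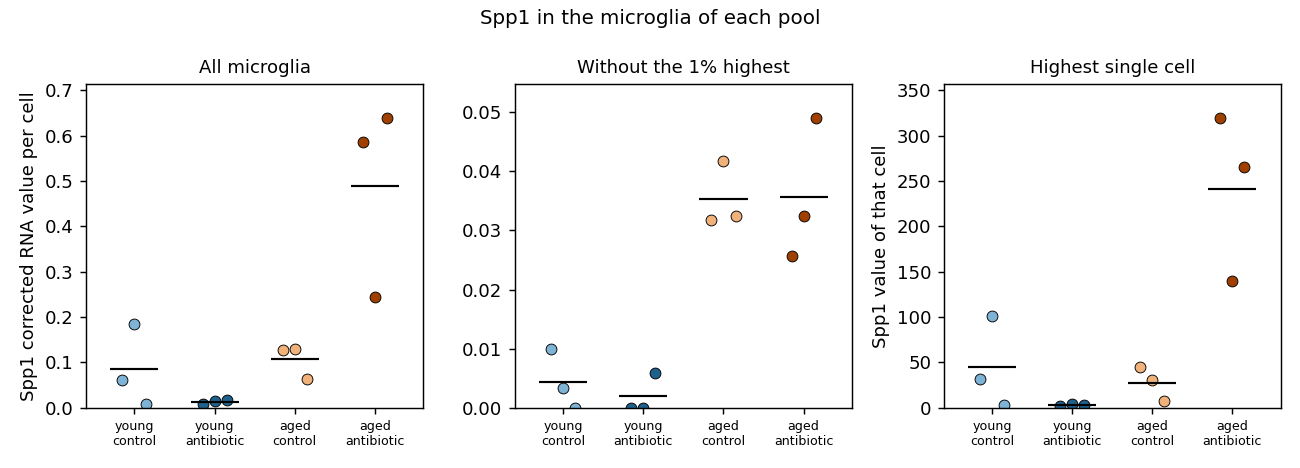
Spp1 in the microglia of each pool: the value of the highest single cell, and the pool mean with all cells and without the 1% highest cells. The aged antibiotic pools hold the highest cells (319, 140 and 265), and without the top cells their means (0.0257 to 0.0489) overlap those of aged control pools (0.0317 to 0.0418).

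The members tended to be found in the same cells. Among the 23 microglia with Spp1 of at least 5, Lpl was above 0 in 60.9%, Itgax in 60.9%, Axl in 65.2% and Cst7 in 52.2%, against 6.11%, 3.04%, 6.73% and 6.23% of the 9151 microglia with Spp1 at 0. Mean Apoe was 119 against 9.61 and mean Cd9 15.3 against 7.02 in the same 2 sets. The homeostatic purinergic receptor P2ry12 averaged 2.44 against 10.7 and Tmem119 3.91 against 8.12. Of the 7 border-associated macrophage markers, Mrc1, Cd163, Pf4, Lyve1 and F13a1 were at 0 in all 23, and Ms4a7 and Cbr2 were each above 0 in 4.35% of them. Median raw UMIs were 10312 against 6906, so depth moved with these values. Among cells of 5000 to 10000 raw UMIs, the 136 microglia with any Spp1 had Itgax in 2.94% against 2.82% of those without, Cst7 in 9.56% against 6.09%, Axl in 12.5% against 5.65% and Lpl in 14.0% against 5.58%. Over cells of all depths the same shares were 13.5% against 3.04%, 17.5% against 6.23%, 22.2% against 6.73% and 20.2% against 6.11%. Within this window the excess of Itgax was thus absent, and those of Cst7, Axl and Lpl were smaller. The window also left out cells above 10000 raw UMIs, among them many of the 23, whose median was 10312. It therefore cannot tell the part of depth from that of leaving out these cells.

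The 36 microglia with Lpl of at least 5 looked alike in this respect, with mean Apoe of 68.1 against 8.20 in cells at 0, mean Cd9 of 23.6 against 6.82 and mean P2ry12 of 3.47 against 10.8. Axl was above 0 in 58.3% of them against 5.82%, and Cst7 in 41.7% against 5.60%. In microglia with Cst7 above 0 (614 cells) Axl was seen in 24.6% against 5.93% and Lpl in 19.9% against 5.55%, each higher in 12 of 12 pools, and mean Apoe was 46.3 against 8.14. In microglia with Axl above 0 (672 cells) mean Apoe was 50.1 against 7.59. Median raw UMIs were 8497 against 6841 by Cst7 and 8317 against 6860 by Axl. Among cells of 5000 to 10000 raw UMIs, cells with Cst7 still had Axl in 16.4% against 5.10% and Lpl in 13.5% against 5.26% (each higher in 10 of 12 pools), with mean Apoe of 31.6 against 7.02. Mean Apoe by Axl was 38.0 against 6.72 there.

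Counting Lpl, Cst7, Itgax, Axl and Spp1 together, 1.74% to 3.12% of the microglia of young pools had at least 2 of the 5 above 0. Aged pools had a share of 8.21%, 7.20% and 5.09% with vehicle and 7.62%, 8.46% and 9.68% with antibiotics. At least 3 of the 5 were found in 0.102% to 0.758% of young and 1.55% to 3.37% of aged microglia. No young pool reached an aged pool on either count. The 2 aged arms overlapped on the first count, and on the second the control pools (1.55% to 2.69%) lay just below the antibiotic pools (2.72% to 3.37%), a difference that was not tested.

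Within pools, Trem2 and Tyrobp varied together over single microglia (mean Pearson's r = 0.637, 0.491 to 0.726 over 12 pools), and Trem2 with Cd9 (0.458). Apoe and Trem2 were nearly unrelated (0.0581). Over the other genes seen in at least 2% of microglia, Trem2 was most like Cst3 (0.757) and C1qc (0.745), Tyrobp most like Cst3 (0.742) and Ctss (0.692), and Cd9 was close to Ctsz (0.456). Apoe was most like Lyz2 (0.308) and Cd63 (0.241), Cst7 most like Chst2 (0.214) and Lyz2 (0.200), and Axl most like Ifi27l2a (0.198) and Lyz2 (0.170). Lpl was most like Lgals3 (0.199) and Fam20c (0.179), Itgax most like Lgals3 (0.147) and Ctsb (0.137), and Spp1 most like Apod (0.160, above 0 in 6 of 12 pools) and Fabp5 (0.131, in 8 of 12). All of these are means of r over cells of 12 pools, which share a library and its depth, and the values for the sparse genes are weak.

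The antibody library gave a reading of the Itgax protein in cells set apart by their Itgax RNA. CD11c, the protein of Itgax, was counted by its antibody tag in microglia with Itgax RNA above 0 and in those at 0. Per 10000 tags of the same cells, young control pools had 122, 47.1 and 30.8 CD11c tags in cells with Itgax RNA against 19.0, 20.6 and 18.6 in cells without. Young antibiotic pools had 43.4, 46.2 and 66.3 against 20.5, 21.9 and 20.5. Aged control pools had 176, 84.7 and 96.4 against 40.3, 39.9 and 46.9, and aged antibiotic pools 673, 241 and 151 against 40.5, 42.2 and 33.5. CD11c was higher with Itgax RNA in 12 of 12 pools.

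By edgeR's quasi-likelihood test with the pool as block, CD11c differed by 1.78 on the log2 scale (SE 0.270, adjusted p = 1.42e-04), the largest difference of 34 antibodies, of which 29.4% were called. The exact two-sided sign-flip permutation test over the 12 pools gave p = 4.88e-04, the smallest it can give, with a mean log2 ratio of 1.79 ± 0.967 (SD). CD86 (0.49) and PD-L1 (0.41) were also higher in cells with Itgax RNA and 7 antibodies were lower. With no composition factors 5 of the 10 called antibodies were higher, and DESeq2 called 8, of which 7 were higher, with CD11c ranking 2 by size. Single cells weighed here too: the highest cell held 70.5% of the CD11c tags of Itgax RNA cells in aged antibiotic pool 1 and 80.2% in young control pool 1. Without the highest cell of each set the difference was 1.16 (edgeR adjusted p = 4.50e-04). Median raw UMIs were higher in cells with Itgax RNA (7294 to 10179 over pools) than in those without (6366 to 7275). The part of depth was not tested.

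**Figure D5:**
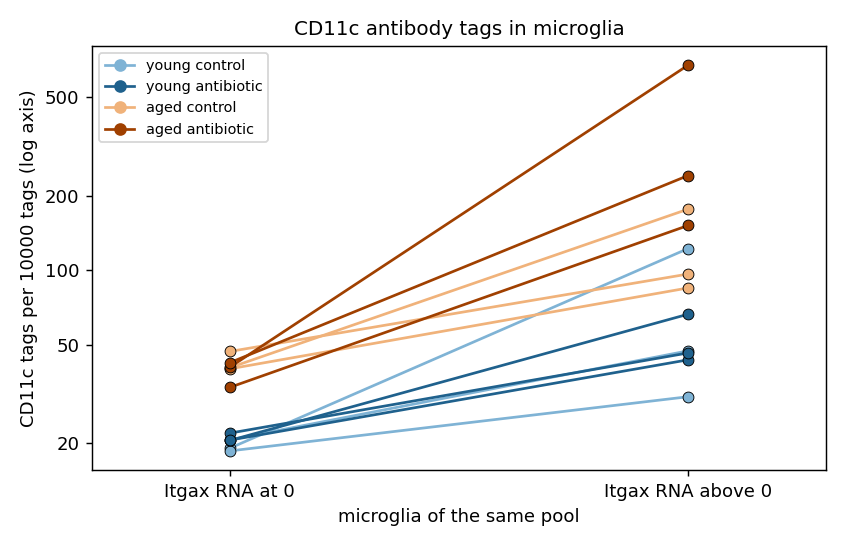
CD11c antibody tags per 10000 tags (log axis) in the microglia of each of the 12 pools, summed over cells with Itgax RNA at 0 (left) and above 0 (right), with a line for each pool. Every line rises, from 18.6 to 46.9 tags on the left to 30.8 to 673 on the right.

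Outside microglia only BAM and Ly6CLow cells were tested, and members were called in 1 of 6 comparisons. In Ly6CLow cells, Apoe and Trem2 rose with age in the antibiotic arm, which is 2 of 9 members, where 1.95% of 8613 genes were called. Apoe averaged 36.7, 15.4 and 28.9 in young antibiotic and 45.0, 61.3 and 71.8 in aged antibiotic pools, a log2 difference of 1.2 (SE 0.258, limma adjusted p = 0.0211). Trem2 averaged 2.12, 0.818 and 1.41 against 2.94, 2.80 and 3.72, a difference of 1.18 (limma adjusted p = 0.0394). Neither gene's groups overlapped. Pools held 33 to 86 of these cells, with median raw UMIs of 11311 to 12076 in young and 7139 to 10211 in aged antibiotic pools. Both calls were lost when young antibiotic pool 2 or 3, or aged antibiotic pool 2 or 3, was left out. That of Trem2 was also lost without young control pool 3 or aged antibiotic pool 1, and with cells of at least 2000 raw UMIs (limma adjusted p = 0.357). The median of the 9 members was -0.15, against -0.11 over all genes.

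Ly6CLow cells gave 0 of 9 calls between aged and young control pools (0.755% of genes called) and 0 of 9 for antibiotics over both ages (0% of genes called) by limma, with 1 and 0 members at an unadjusted p under 0.05. In BAM, limma called 0 of 8 members for age in control pools, 0 for age in antibiotic pools and 0 for antibiotics, where 0.0447%, 0.0783% and 0.0559% of 8942 genes were called. The members with an unadjusted p under 0.05 numbered 0, 3 and 2. They included Trem2 (-0.57, limma adjusted p = 0.382) and Spp1 (-2.58, limma adjusted p = 0.316) for age in antibiotic pools, both lower in aged BAM, and Axl (0.48), higher in aged BAM. Cst7 fell under the filter there.

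Other genes of the same state moved with age as well. Of 28 further disease-associated microglia genes 22 passed the filter. Between young and aged control pools 6 rose and 0 fell, where 2.66% of all genes were called. The median log2 difference was 0.17, against 0.02 over all genes. In antibiotic pools 11 rose and 0 fell (0.24, against 0.03), where 6.15% of all genes were called. Csf1, the growth factor that maintains microglia, rose by 0.99 in control and 0.91 in antibiotic pools (limma adjusted p = 0.00358 and 0.00411). Lyz2, lysozyme, rose by 0.64 in control pools (limma adjusted p = 0.00581) and the chemokine Ccl3 by 0.74 in antibiotic pools (limma adjusted p = 0.00483). For antibiotics 0 of the 22 were called in young, in aged or over both ages. In that order 2, 2 and 3 had an unadjusted p under 0.05 in limma. Among all genes the called share was 0.137%, 3.23% and 5.4%.

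The signalling chain below TREM2 and TYROBP showed no call for age. Of 12 genes, all tested, 1 and 2 had an unadjusted p under 0.05 for age in control and antibiotic pools in limma. Among all genes 2.66% and 6.15% were called there. Inpp5d encodes the inhibitory phosphatase SHIP1. It was higher with antibiotics in aged microglia by 0.23 (limma adjusted p = 0.0357) and over both ages by 0.19 (limma adjusted p = 0.0122). That is 1 of 12 in each contrast, where 3.23% and 5.4% of all genes were called. Among 15 lipid-handling genes 9 were tested. The cholesterol esterifying enzyme Soat1 rose with age in antibiotic pools by 0.40 (limma adjusted p = 0.00501). It was the 1 called of 9 there, where 6.15% of all genes were called. Over both ages antibiotics came with higher Npc1, a lysosomal cholesterol transporter (0.20, limma adjusted p = 0.0307), and lower Lipa, lysosomal acid lipase (-0.21, limma adjusted p = 0.0218). That is 1 higher and 1 lower of 9, where 5.4% of all genes were called.

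Of 14 ligands and partners of the members 11 were tested. The CD9 partners Ptgfrn and Igsf8 rose with age in antibiotic pools, by 0.48 and 0.34 (limma adjusted p = 0.0238 and 0.0332). Igsf8 was lower with antibiotics over both ages (-0.25, limma adjusted p = 0.0321). These are 2 of 11 and 1 of 11, where 6.15% and 5.4% of all genes were called. The 15 homeostatic microglia genes, all tested, had 0 calls for age in control pools by limma, where 2.66% of all genes were called. Their median there was -0.10, and 4 of them had an unadjusted p under 0.05. In antibiotic pools 4 fell and 0 rose, where 6.15% of all genes were called, with a median of -0.14 against 0.03 over all genes. Sparc fell by 0.38 and P2ry12 by 0.33 there (limma adjusted p = 0.00554 and 0.0102). With antibiotics, the receptor Gpr34 was lower in aged microglia (-0.39, limma adjusted p = 0.0131) and over both ages (-0.28, limma adjusted p = 0.00871). P2ry13 was lower with antibiotics over both ages (-0.16, limma adjusted p = 0.0251). These are 1 of 15 in aged microglia and 2 of 15 over both ages, where 3.23% and 5.4% of all genes were called.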

How the data were processed

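The RNA, antibody and hashtag libraries of 2 wells were processed by the authors with Cell Ranger 3.0.2 and Seurat 3.0.1 on mm10, per the submitters' processing notes. The deposited RNA table holds SCTransform-corrected values, treated here as a score: whole numbers whose sum in each of the 13052 cells equals the corrected total in the deposited metadata. The antibody tags are deposited as raw counts, and the metadata give raw UMI counts, pool, group and cell type, all used as deposited; 34 metadata columns were not used. How doublets were treated is not given in the sources used here, and no caller was run on these annotated cells. Cells were averaged per pool and type (at least 10 cells), and the 12 pools were compared by limma 3.58.1 in R 4.3.3 (group means, trended prior, log2(mean + 0.05), genes with a mean of at least 0.05), or on the log2 odds of values above 0 with 0.5 added to both counts. P-values were Benjamini-Hochberg adjusted over all genes tested, with a threshold of 0.05. Tag counts summed by pool and Itgax RNA status were tested with edgeR 4.0.16, with DESeq2 1.42.0 as alternative. Correlations were computed within pools. The scripts were tested on simulated data. Alternatives were the pseudocount, the filter, the prior, cell subsets, capped values and leaving out each pool. The windows of raw UMIs, the sets without border macrophage markers, without Apod cells and without the highest CD11c cells were chosen after seeing the data. The members and gene lists were chosen with earlier results of these data known. Named were all members, up to 2 called genes of each list with the largest change per direction and contrast, and for each member the 2 genes of highest mean within-pool Pearson's r on log(1 + value), among genes above 0 in at least 2% of microglia. One gene that these rules and marker lists take in is not reported here by name or value. Sequences are from RefSeq (GRCm38.p6).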

Additional observations from a re-analysis of the deposited data

How the results depend on the processing

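The age calls of Apoe, Axl and Cst7 in antibiotic microglia and of Axl and Cst7 in control microglia were kept under all 26 alternatives for the mean. For Apoe in control pools the call was lost with no filter on low values (limma adjusted p = 0.0634) and with a robust prior (0.0702), and for Cd9 in both arms with the mean over cells of log2(value + 1) (0.107 and 0.227). The Apoe share call in antibiotic pools was also lost within 5000 to 10000 raw UMIs (0.296), with at least 2000 raw UMIs (0.0545), with values above 1 counted as detected (0.0511) and with an untrended prior (0.0962), and the Spp1 share call in control pools with values above 1 counted as detected (0.051). Spp1 in aged microglia, antibiotic minus control, changed sign without the 1% highest cells (-0.000772), and its call was kept in 17 of 25 alternatives; it was lost with values capped, with the mean of logs, within 5000 to 10000 raw UMIs, with no filter and with a robust prior. The number of members called for antibiotics in aged microglia was 1, and became 3 with a pseudocount of 0.5, 0 with no filter, 3 with the mean of logs, 2 with at least 2000 raw UMIs and 2 without cells holding a border macrophage marker, with 0 to 2 when single pools were left out. For antibiotics over both ages it was 0 and became 1 (Apoe) with the mean of logs, with capped values and without the 1% highest cells, with 0 to 1 over left-out pools. Leaving out pools gave 0 to 1 for the change of the antibiotic effect with age (Spp1 without young control pool 3 or aged antibiotic pool 2) and 0 to 1 for the share of cells over both ages (Cd9 without aged antibiotic pool 2). In Ly6CLow cells the 2 age calls in antibiotic pools became 0 with no filter and 1 with at least 2000 raw UMIs. Over left-out pools they ran from 0 to 3, with Spp1 added without aged control pool 1. Age in control pools gave 0 to 1 there (Tyrobp without aged control pool 3). The causes were not tested. With the replicate block, which pairs young and aged pools by hashtag number, 5 members were called for age in control and 6 in antibiotic pools by the mean, Lpl being the added one in each, and 3 and 4 by the share. The numbers mark hashtags only: pools of the same number deviated together with r from -0.0946 to 0.109, and 3 of 6 matched best with their own number. At this depth the shares of microglia with Itgax or Spp1 RNA were not clear of those in other cell types. Those with Axl or Cst7 RNA lay below B cells in young mice and little above them in aged mice. The shares with Lpl RNA lay below BAM at both ages.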
